A study of Mus musculus with 9 samples.

Results

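The 9 genes described here encode proteins of the myelin sheath made by mature oligodendrocytes: Mbp, Mobp, Mal, Cldn11, Cnp, Mog, Mag, Opalin and Ugt8a. They were chosen by gene symbol, and all 9 had a row among the 14444 genes of the deposited matrix. Mice were 5 to 8 weeks old, and total RNA of their prefrontal cortex, depleted of ribosomal RNA, was sequenced in 9 libraries, 3 in each of 3 groups. The wild-type (WT) mice received saline. The mice of the SHANK3 genotype received either saline or UNC0642, an inhibitor of the histone methyltransferases EHMT1 and EHMT2, given by intraperitoneal injection on 3 days, at a daily dose of 1 mg per kg. Shank3 encodes a scaffold protein of excitatory synapses; the labels name the genotype but not its allele, and they do not say if each library stands for a separate animal. The p-values below therefore measure spread from library to library, in which technical variation may be the larger part.

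Oligodendrocytes wrap axons in many layers of membrane, which speeds conduction and feeds the axon. A sheath holds a compact part, in which basic proteins draw the cytoplasmic faces of the membrane together, and non-compact parts next to the axon and at the outer rim, where adhesion molecules sit. The transcription factors SOX10 and MYRF switch these genes on as precursors differentiate, and in the mouse cortex myelin is still being added during the weeks sampled here.

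Upstream sequences are shown because the 9 genes varied together over the libraries, as described below. RefSeq windows of 300 bases, from 250 bases before to 50 after a start site, were matched for 8 of the 9 genes on the GRCm38.p6 build; Mbp is named only. Both strands were searched for the core of the MYRF motif, CTGGCAC or CTGGTAC. The same was done for SOX cores, ACAAAG or ACAATG, for the TATA box TATAAA and for the GC box GGGCGG. The 5 windows printed hold a MYRF or a SOX core, in capitals, on the strand of the gene: runs of 7 capitals are MYRF cores and runs of 6 are SOX cores, in some cases as the reverse complement. No MYRF core overlaps a SOX core in them. The windows are chr7:30914814-30915113 on the minus strand for Mag, chr11:100574689-100574988 on the plus strand for Cnp, chr19:41077064-41077363 on the minus strand for Opalin, chr17:37023349-37023648 on the minus strand for Mog and chr9:120149492-120149791 on the plus strand for Mobp.
Mag: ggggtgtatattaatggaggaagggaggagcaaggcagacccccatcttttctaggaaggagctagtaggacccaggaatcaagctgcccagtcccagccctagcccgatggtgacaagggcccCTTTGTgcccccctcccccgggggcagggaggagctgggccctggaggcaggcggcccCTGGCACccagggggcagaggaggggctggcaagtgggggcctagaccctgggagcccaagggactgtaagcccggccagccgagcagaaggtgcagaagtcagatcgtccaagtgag
Cnp: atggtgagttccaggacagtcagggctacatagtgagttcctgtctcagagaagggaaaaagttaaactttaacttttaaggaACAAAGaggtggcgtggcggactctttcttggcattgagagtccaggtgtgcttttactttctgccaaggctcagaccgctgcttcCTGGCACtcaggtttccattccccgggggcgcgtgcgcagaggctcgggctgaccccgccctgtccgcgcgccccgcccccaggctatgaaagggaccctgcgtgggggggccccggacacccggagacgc
Opalin: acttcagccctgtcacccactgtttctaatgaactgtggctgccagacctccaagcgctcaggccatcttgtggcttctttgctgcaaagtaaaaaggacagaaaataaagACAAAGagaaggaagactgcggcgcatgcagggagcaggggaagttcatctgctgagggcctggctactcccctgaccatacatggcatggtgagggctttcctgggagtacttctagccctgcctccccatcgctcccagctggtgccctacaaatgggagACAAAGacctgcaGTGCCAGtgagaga
Mog: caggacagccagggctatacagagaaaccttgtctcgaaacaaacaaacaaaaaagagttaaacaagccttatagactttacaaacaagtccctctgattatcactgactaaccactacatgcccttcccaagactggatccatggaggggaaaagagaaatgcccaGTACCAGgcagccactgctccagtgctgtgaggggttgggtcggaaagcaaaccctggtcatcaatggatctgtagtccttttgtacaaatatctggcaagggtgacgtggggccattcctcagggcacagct
Mobp: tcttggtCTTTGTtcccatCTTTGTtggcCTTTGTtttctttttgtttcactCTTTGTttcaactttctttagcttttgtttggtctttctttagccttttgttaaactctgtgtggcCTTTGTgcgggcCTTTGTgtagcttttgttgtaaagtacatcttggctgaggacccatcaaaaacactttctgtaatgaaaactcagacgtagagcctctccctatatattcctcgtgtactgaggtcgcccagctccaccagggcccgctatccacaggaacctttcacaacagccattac

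The core CTGGCAC was found in windows of 3 of the 8 genes, namely Mag, Cnp and Opalin, and in those of 5.73% of 27025 genes. Its first base lay 68 bases before the start site in Mag and 81 before it in Cnp, while in Opalin it lay at position 36 after the start. CTGGTAC was found in Mog alone among the 8, 83 bases before the start, and in 2.6% of genes. ACAAAG was found in Mag, Mobp, Cnp and Opalin, against 21.0% of genes, and the Mobp window held 6 copies, all on the strand opposite to the gene. ACAATG and TATAAA were found in 0 of the 8, against 14.3% and 15.7% of genes. The GC box was found in Cnp, Cldn11 and Ugt8a, against 38.2% of genes; the first 2 of the 3 copies in Ugt8a overlap. The Mal window held none of these motifs. These matches describe letters in a window and not binding.

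The deposited values were named CPM by the authors but carry an adjustment, so that 2 scales are used throughout. In the deposited values, the mean log2 level of every gene is equal between a set of 5 libraries (WT replicates 1 to 3, UNC0642 replicates 2 and 3) and a set of 4 (SHANK3 saline replicates 1 to 3, UNC0642 replicate 1). The whole reads behind the values could be recovered for all 14444 genes and are given as RPM, recovered reads scaled to one common library total; they came to 12035098 to 16165483 per library. Over all genes, the first principal component of the recovered reads (52.0% of the variance) divided the libraries. WT and UNC0642 replicate 3 lay on one side, and SHANK3 saline and UNC0642 replicates 1 and 2 on the other. This division followed the genotype in all libraries except UNC0642 replicate 3, an exception that no label accounts for. Excitatory neuron markers of the cortex, 12 genes, summed to 7731 to 8892 in the deposited values, and 10 striatal markers to 433 to 467. Shank3 itself stood at 308, 315 and 355 in WT, 333, 344 and 318 in SHANK3 saline and 288, 303 and 322 in UNC0642. In RPM, Shank3 stood at 295, 309 and 357 in WT, 337, 349 and 321 in SHANK3 saline and 294, 298 and 319 in UNC0642. The ranges of WT and the SHANK3 groups overlap on both scales, so the level of Shank3 does not separate the genotypes.

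Per length, Mbp was the most abundant of the 9 genes and Opalin the least. In WT, RPM per kilobase of exon (union of exons, GENCODE M21) were 224 ± 58.1 for Mbp (SD, n = 3 here and for the other genes), 81.8 ± 15.8 for Cnp, 77.9 ± 22.1 for Mal and 64.4 ± 16.6 for Cldn11. They were 34.2 ± 10.1 for Mobp, 31.5 ± 8.62 for Mag, 26.6 ± 7.37 for Mog, 15.0 ± 4.97 for Ugt8a and 4.04 ± 1.01 for Opalin. The WT libraries of Mbp (157 to 259) did not overlap those of Cnp (63.7 to 93.2), nor did those of Opalin (2.96 to 4.96) overlap those of Ugt8a (9.27 to 18.4). Cnp, Mal and Cldn11 lay within 1 SD of their neighbours in this order, as did Mobp, Mag and Mog, and the Mog libraries (18.2 to 32.1) overlapped those of Ugt8a. With the longest coding transcript in place of the exon union, Mobp lay above Cldn11, at 71.2 ± 21.1 against 64.4 ± 16.6, and the other places in the order stayed. Read depth was lowest for Opalin, with 47 to 250 reads per library, and highest for Mbp, with 8767 to 35946.

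Genes of compact myelin came first. Mbp encodes myelin basic protein, which joins the cytoplasmic faces of the membrane, and its deposited values were 1084, 1732 and 1704 in WT, 881, 2016 and 1863 in SHANK3 saline and 1469, 1764 and 1280 in UNC0642. Mobp, another small basic protein of compact myelin, stood at 121, 205 and 210 in WT, 95.3, 250 and 220 in SHANK3 saline and 173, 204 and 148 in UNC0642. In both genes replicate 1 of SHANK3 saline was lowest and replicate 1 of WT second lowest, and replicate 2 of SHANK3 saline was highest. Mal encodes a proteolipid of lipid rafts that takes part in sorting to myelin, and its deposited values were 114, 194 and 186 in WT, 89.3, 229 and 213 in SHANK3 saline and 169, 189 and 156 in UNC0642. Cldn11, the claudin of the tight junctions between myelin layers, stood at 68.0, 108 and 106 in WT, 51.1, 134 and 120 in SHANK3 saline and 103, 116 and 89.7 in UNC0642. For these genes too the 3 groups overlapped.

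Cnp encodes a phosphodiesterase of the cytoplasmic channels of non-compact myelin. Its deposited values were 196, 266 and 274 in WT, 165, 311 and 308 in SHANK3 saline and 239, 290 and 226 in UNC0642, the narrowest range of the 9 genes, with the highest library 1.89-fold above the lowest. Mag, Mog and Opalin encode membrane glycoproteins. Mag, the adhesion molecule facing the axon, stood at 69.4, 111 and 115 in WT, 53.1, 135 and 114 in SHANK3 saline and 98.9, 112 and 77.0 in UNC0642. Mog, on the outermost surface of the sheath, stood at 26.1, 44.8 and 40.3 in WT, 22.0, 48.9 and 48.1 in SHANK3 saline and 38.3, 49.3 and 32.0 in UNC0642. The order of the libraries in both was that of Mbp at its lower end. Opalin, a glycoprotein specific to oligodendrocytes of mammals, stood at 6.99, 11.3 and 9.40 in WT, 5.21, 10.9 and 14.6 in SHANK3 saline and 10.9, 11.9 and 9.83 in UNC0642. It had the widest range, 2.79-fold, and its highest library was replicate 3 of SHANK3 saline. Ugt8a encodes the enzyme that makes galactosylceramide, the main glycolipid of myelin. Its deposited values were 29.1, 56.3 and 51.6 in WT, 27.2, 59.2 and 53.7 in SHANK3 saline and 41.3, 45.8 and 40.0 in UNC0642, whose 3 libraries lay closest together.

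**Figure D1:**
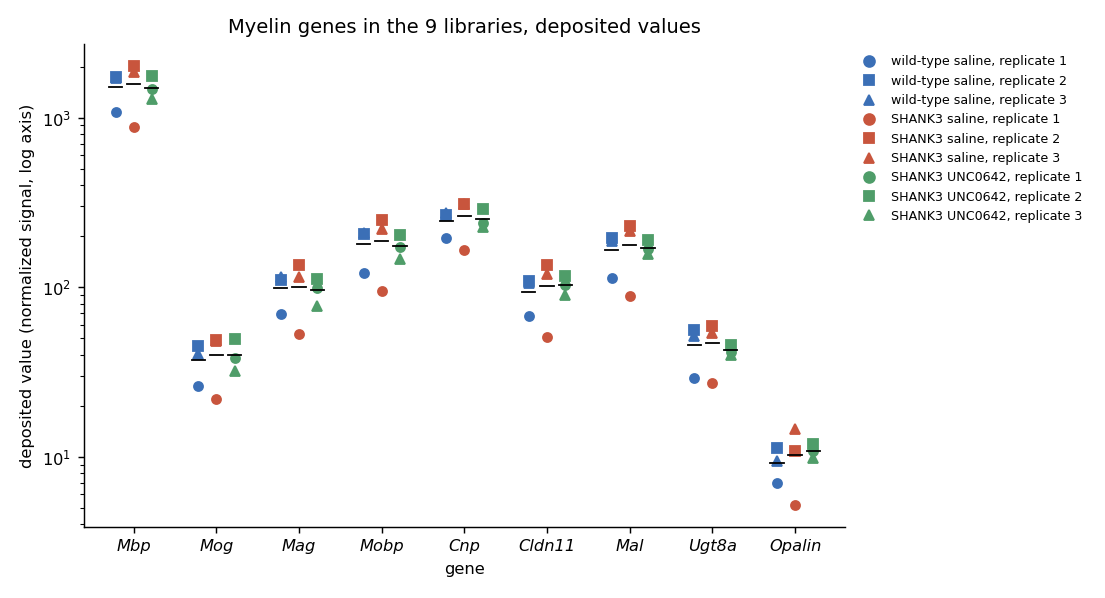
Deposited values (log axis) of the 9 myelin genes in the 9 libraries; colours mark groups, symbols mark replicate numbers and short lines the group means. Replicate 1 of SHANK3 saline is lowest and replicate 1 of WT second lowest for 9 of 9 genes.

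The spread among libraries of one group was wide for these genes on both scales. The SD within groups of log2(value + 0.5) had a median of 0.48 over the 9 genes, against 0.15 over all genes, and 98.3% of genes lay below the members' median. The lowest member SD, that of Cnp, was 0.36. On recovered RPM the median SD within groups was 0.55 for the members, against 0.16 over all genes. Differences between the group means took up a median of 0.582% of the variation of the 9 genes in the deposited values, against 17.1% over all genes. On recovered RPM this share was 31.0% for the members and 38.5% for all genes. In a bulk sample, fewer oligodendrocytes and less myelin RNA per cell cannot be told apart. Replicate 1 of WT had the fewest recovered reads of the 9 libraries, 12035098, and replicate 1 of SHANK3 saline had 12548293. Replicate 1 of UNC0642 (12233543) and replicate 3 of WT (12445073) also had fewer than replicate 1 of SHANK3 saline. The 9 genes made up 0.185% and 0.349% of reads in these, against 0.212% in replicate 1 of WT and 0.109% in replicate 1 of SHANK3 saline. The part of depth was not tested.

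On recovered reads, which do not carry the adjustment, the libraries were ordered differently. Mbp stood at 1330, 2173 and 2191 RPM in WT, 699, 1601 and 1471 in SHANK3 saline and 1171, 2224 and 1619 in UNC0642. Replicate 1 of SHANK3 saline was again lowest for 9 of 9 genes, but the second lowest was replicate 1 of UNC0642 for 8 of 9 and replicate 2 of SHANK3 saline for Opalin. The highest library was replicate 2 of UNC0642 for 5 genes and replicate 2 or 3 of WT for 2 genes each. The 9 genes together made up 0.212%, 0.345% and 0.349% of recovered reads in WT, 0.109%, 0.252% and 0.231% in SHANK3 saline and 0.185%, 0.353% and 0.262% in UNC0642. Replicate 1 thus had the lowest share in each group. The log2 difference between the sets of 5 and 4 libraries that the adjustment took out ran from 0.54 for Cnp to 1.13 for Ugt8a, with a median of 0.75, while the median over all genes was 0.0013 and their median size 0.17. Removal of this difference is a step of the deposited values, and the group differences of the members on that scale follow from it in part.

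**Figure D2:**
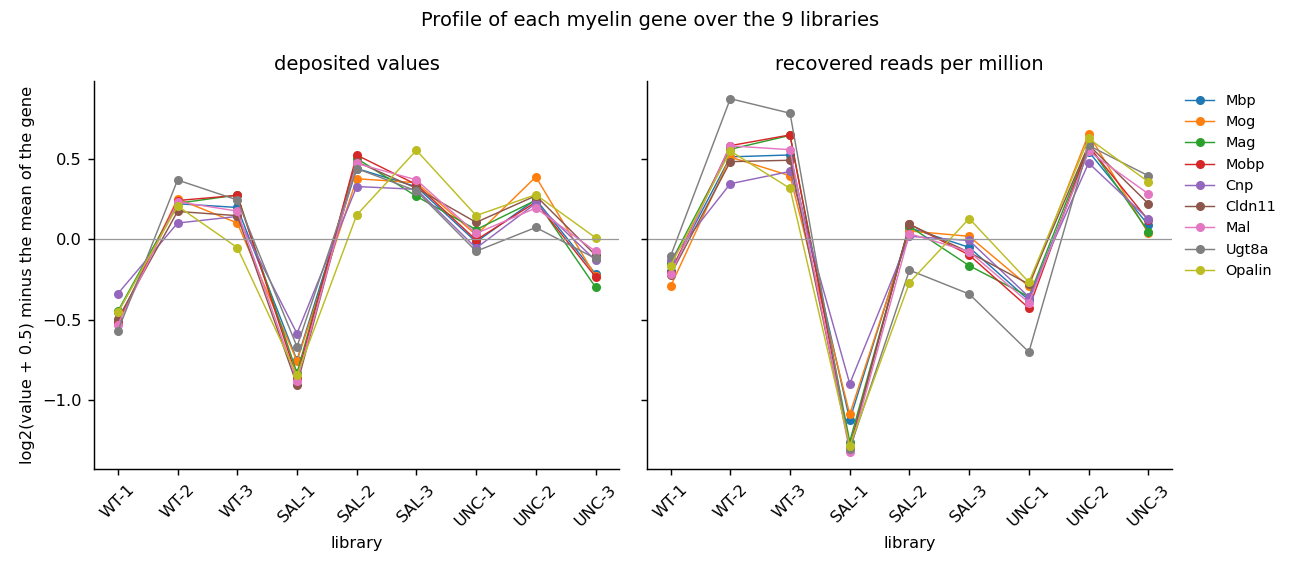
Log2(value + 0.5) of each myelin gene minus its mean over the 9 libraries, for deposited values (left) and recovered RPM (right); each line is a gene and WT, SAL and UNC mark WT saline, SHANK3 saline and SHANK3 UNC0642. The lines run nearly in parallel, with replicate 1 of SHANK3 saline at the bottom on both scales.

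The 9 genes followed one profile over the libraries. The Pearson correlations of the 36 pairs on the deposited log2 values ran from 0.85 (Ugt8a with Opalin) to 0.998 (Mbp with Mobp), with a median of 0.97 over 9 libraries; the points share library, depth and tissue piece. Spearman correlations ran from 0.60 to 1.00. With group means taken out, the pairs ran from 0.89 to 1.00, so the shared profile was also seen within groups. Without replicates 1 of WT and of SHANK3 saline the range was 0.30 to 0.99 and the median 0.90 over 7 libraries. On recovered reads the median was 0.98 with all 9 libraries.

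Members differed in how closely they kept to the profile. The log2 level of Mbp relative to the mean of the other 8 genes, on recovered reads, ranged over 0.21 among the 9 libraries, and those of Cldn11, Mobp and Mal over 0.22, 0.23 and 0.24. Mag and Mog followed, with 0.28 and 0.30. The relative level of Opalin ranged over 0.53 and that of Cnp over 0.58, and Ugt8a had the widest range, 0.72. The relative log2 level of Ugt8a was -1.31, -1.04 and -1.12 in WT, -1.51, -1.62 and -1.70 in SHANK3 saline and -1.76, -1.39 and -1.17 in UNC0642. The WT and SHANK3 saline libraries did not overlap in this measure, and the UNC0642 libraries spanned most of both. Mbp, at 4.24 to 4.28 in WT and 4.32 to 4.38 in SHANK3 saline, and Mog, at -1.83 to -1.72 and -1.61 to -1.54, did not overlap either, with SHANK3 saline higher. So 1 of 9 members separated downward, 2 upward and 6 overlapped. These levels depend on each other: a lower Ugt8a raises the relative level of every other member. The margin of Mbp was narrow, 4.28 against 4.32, so its upward separation cannot be read apart from the fall of Ugt8a. No share over all genes exists for this measure, which is defined among the members only. For Cnp the relative level was 1.44, 1.14 and 1.25 in WT, 1.73, 1.40 and 1.45 in SHANK3 saline and 1.41, 1.26 and 1.31 in UNC0642. It was highest in the library in which the other 8 genes were lowest.

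The first comparison asks how the SHANK3 genotype differs from WT under saline. In the deposited values 0 of 9 myelin genes were called (limma, adjusted p of 1 for each), with log2 differences of SHANK3 saline minus WT from -0.04 (Mag, SE 0.27) to 0.05 (Opalin, SE 0.27) and a median of 0.02, beside a median of 0.003 over all genes. The background was 0 called of 14444 genes, 0.00%, with 19 at an unadjusted p under 0.05. For 0 of the 9 did the libraries of the groups separate, against 1.7% of all genes separated downward and 1.73% upward. Of 200 genes simulated with a log2 change of 1 in this comparison, limma called 200 before the adjustment and 0 after it. An absence of calls on this scale is therefore not read as an absence of change. The part of the adjustment in the absence of calls for the 9 genes, at their wider spread among libraries, was not tested.

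On recovered reads (limma-voom) the log2 differences of SHANK3 saline minus WT were negative for 9 of 9 genes, with a median of -0.71 beside 0.0033 over all genes. Ugt8a was called lower, at -1.11 (SE 0.34, adjusted p = 0.0485), with 42.0, 83.4 and 78.3 RPM in WT and 18.01, 39.5 and 35.6 in SHANK3 saline. The other 8 did not pass: their differences ran from -0.78 for Mag (SE 0.30, adjusted p = 0.0942) to -0.49 for Cnp (SE 0.23, adjusted p = 0.158). This count of 1 of 9 stands beside 12.4% of all genes called, 6.71% lower and 5.71% higher, so the share of members called is near the background. Ugt8a was also the single member whose WT and SHANK3 saline libraries did not overlap in RPM, while 20.5% of all genes separated downward and 20.2% upward in this way. With the division of the libraries as a term in the model, 0 genes were called (709 at an unadjusted p under 0.05), and the members' median was -0.64, with -0.71 for Ugt8a (SE 0.55, adjusted p = 0.992). All WT libraries lie on one side of the division and all SHANK3 saline libraries on the other, so between these groups genotype and division cannot be told apart.

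Mean levels in this comparison rested in part on the low libraries. Without replicates 1 of WT and SHANK3 saline, a choice made after their values were seen, the members' median difference of SHANK3 saline minus WT became 0.19 in the deposited values and -0.50 on recovered reads, with 0 members called on the former scale, 0 of 14444 genes there, and 12 genes called on the latter. Ugt8a stood at -1.08 on recovered reads without them and was no longer called (limma-voom, adjusted p = 0.0926). With 1 library left out, the median in the deposited values ran from -0.20, without replicate 1 of WT or replicate 2 of SHANK3 saline, to 0.42, without replicate 1 of SHANK3 saline.

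The second comparison asks what UNC0642 changes in the SHANK3 genotype. In the deposited values 0 of 9 genes were called (limma, adjusted p of 1.00 for each), against 0.00% of all genes with 281 at an unadjusted p under 0.05. The log2 differences of UNC0642 minus SHANK3 saline ran from -0.06 (Ugt8a, SE 0.25) to 0.19 (Opalin, SE 0.27), with a median of 0.02. The groups overlapped for 9 of 9 genes, where 3.06% of all genes separated downward and 3.17% upward. On recovered reads the differences were positive for 9 of 9 genes, from 0.36 (Cnp, SE 0.23) to 0.74 (Opalin, SE 0.32), with a median of 0.52, and none passed (adjusted p = 0.971 for each); 0 genes in all were called, 0.00%, with 539 at an unadjusted p under 0.05. The groups again overlapped for 9 of 9 genes in RPM, beside 3.89% of all genes separated downward and 5.8% upward. Within the 5 libraries on the SHANK3 saline side of the division (3 saline, 2 UNC0642) the median was 0.53 and 0 genes were called, with 860 at an unadjusted p under 0.05. For Mbp the values behind this were 699, 1601 and 1471 RPM under saline against 1171 and 2224 under UNC0642 on that side. Without replicates 1 of WT and SHANK3 saline the median was 0.12 on recovered reads and -0.37 in the deposited values, so the size and, in the deposited values, the sign of this difference rest on replicate 1 of SHANK3 saline; without replicate 2 of UNC0642 the deposited median was -0.10.

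The third comparison sets the treated SHANK3 mice beside saline-treated WT. In the deposited values 0 of 9 genes were called (limma), against 0.00% of all genes with 1238 at an unadjusted p under 0.05. The log2 differences of UNC0642 minus WT ran from -0.05 (Ugt8a, SE 0.25) to 0.24 (Opalin, SE 0.27, adjusted p = 0.783), with a median of 0.04 (-0.15 without replicate 1 of WT, -0.06 without replicate 2 of UNC0642). No member separated between the groups, beside 5.84% of all genes downward and 5.85% upward. On recovered reads the median was -0.16, from -0.41 (Ugt8a, SE 0.32, adjusted p = 0.481) to 0.03 (Opalin, SE 0.29, adjusted p = 0.968). None of the members was among the 11 genes called, 0.0762% of all, and none separated in RPM, beside 7.62% of all genes downward and 9.84% upward. With the division as a term the median was -0.14 and 0.0346% of genes were called; no member was among them. Within the 4 libraries on the WT side, 3 of WT and 1 of UNC0642, the median was -0.14 and 0.0138% of genes were called; the lone UNC0642 library is there assumed to vary like the WT libraries, so nothing is read from the members' calls. Each group enters 2 of the 3 comparisons, so the differences are not independent of each other.

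**Figure D3:**
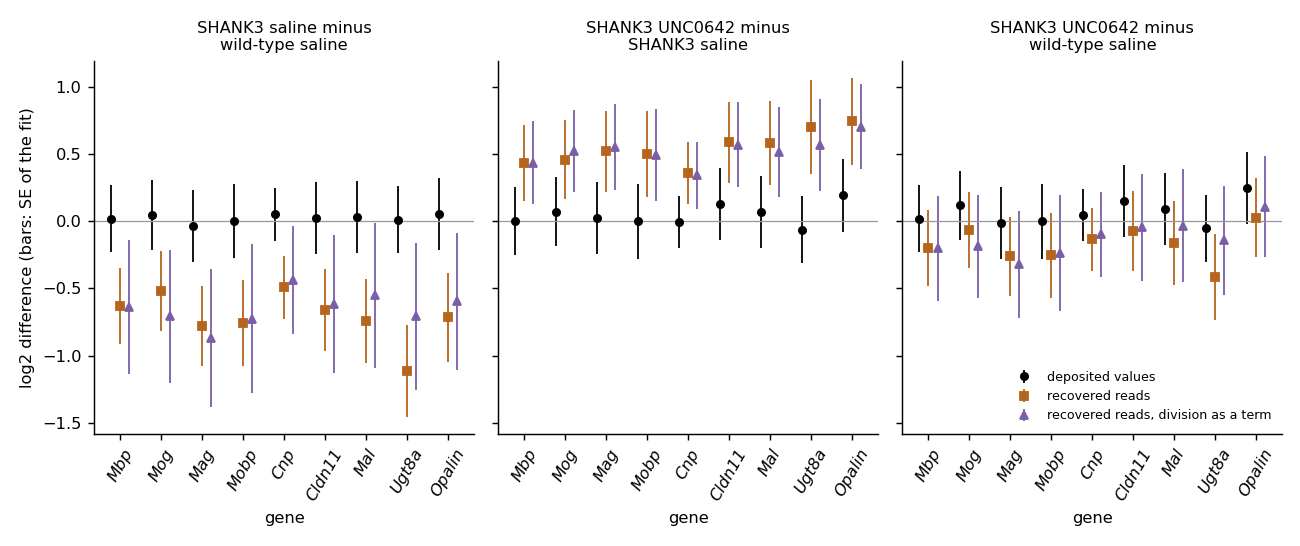
Log2 differences of the 9 myelin genes in the 3 comparisons, with SE of the fit, on deposited values (circles) and on recovered reads, without (squares) and with the division in the model (triangles). On deposited values the points lie near 0; on recovered reads SHANK3 saline lies below WT by a median of 0.71 and UNC0642 above SHANK3 saline by a median of 0.52, with 1 called value, that of Ugt8a.

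Other genes of the lineage were read from lists of known markers. Of 40 further genes of mature oligodendrocytes, 21 (52.5%) had a Pearson r above 0.8 with the mean profile of the 9 myelin genes in the deposited values, against 1.01% of all genes. Among the genes outside the 9 with profiles most like theirs were Fa2h, which hydroxylates the fatty acids of myelin lipids (r of 0.98), and Tprn (0.98). Others were Aspa (0.97), an enzyme that breaks down N-acetylaspartate, Mcam and Prr18 (0.96 each), and the lysophosphatidic acid receptor Lpar1 (0.96), Plekhb1 (0.95) and Kdelc1 (0.94). Tprn moved little in size, with the highest library 1.21-fold above the lowest, where Fa2h moved 2.83-fold. Not every gene of the list followed: Ptgds, the prostaglandin D synthase also made by meningeal cells, had an r of -0.06 and Tubb4a, a tubulin, one of 0.33.

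In the deposited values, genes of earlier stages of the lineage had lower correlations with the profile. The median r was 0.80 for mature genes and 0.55 for 10 transcription factors (11 listed), among them Myrf at 0.77, Sox10 at 0.72 and Olig2 at 0.14. It was 0.25 for 11 genes of newly formed oligodendrocytes, with Enpp6 at 0.92 and Gpr17 at 0.25, and 0.08 for 14 genes of precursors, with Pdgfra at 0.37 and Cspg4 at -0.19. Enzymes of myelin lipids and cholesterol, 13 genes, had a median of 0.44: Fa2h and Cers2, which act on sphingolipids, stood at 0.98 and 0.87, and Hmgcs1 of cholesterol synthesis at 0.18. Among 11 axonal and glial genes of the node and its flanks the median was -0.06. Nfasc, whose glial form anchors the paranode, had an r of 0.77, and Cntnap2, of the axon beside the paranode, one of -0.91 in the deposited values and -0.25 on recovered reads. On recovered reads the list medians were higher and closer together, at 0.89 for mature genes, 0.70 for transcription factors, 0.49 for newly formed, 0.42 for precursor, 0.48 for lipid and 0.36 for node genes. Gpr17 and Pdgfra then stood at 0.64 each.

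**Figure D4:**
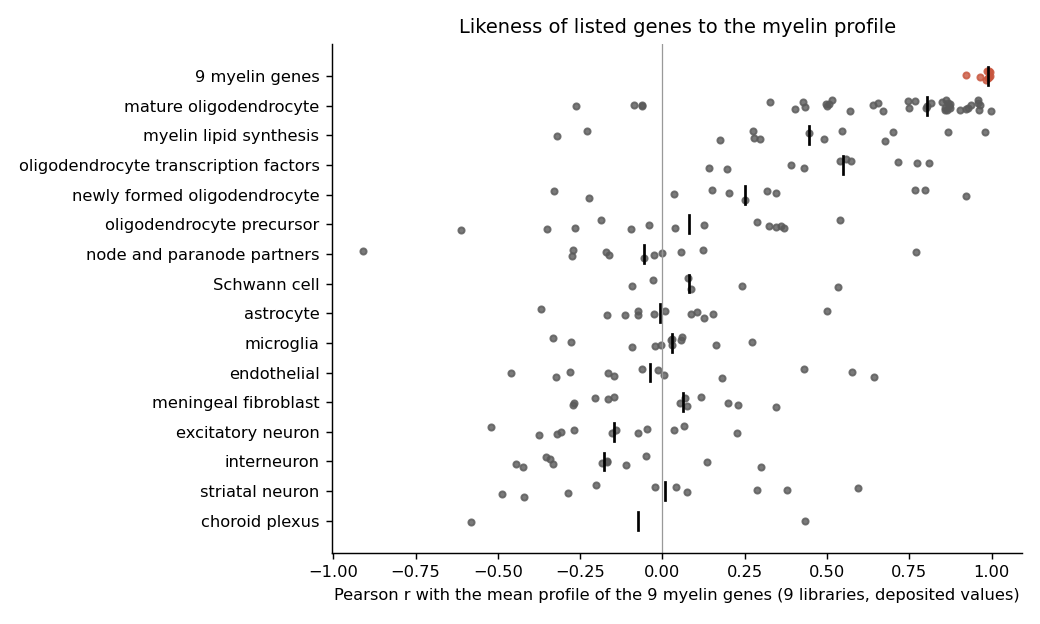
Pearson r of each measured gene of the lists with the mean profile of the 9 myelin genes, over the 9 libraries in deposited values; each point is a gene and the bars are list medians. The medians go down from 0.80 for mature oligodendrocyte genes to 0.25 for newly formed and 0.08 for precursor genes, and on recovered reads, not plotted, they are 0.89, 0.49 and 0.42; the 9 myelin genes are part of the profile they are set against.

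In the deposited values, markers of other cell types had median correlations with the profile near 0. None of the genes listed for astrocytes, microglia, endothelium, meningeal fibroblasts, neurons or Schwann cells had an r above 0.8, and their list medians lay between -0.18 and 0.08. On recovered reads again none lay above 0.8, but the medians were 0.40 for astrocytes, 0.34 for endothelium, 0.30 for microglia and 0.27 for Schwann cells, against 0.07 for meningeal fibroblasts, -0.10 for excitatory neurons, -0.24 for interneurons and 0.06 over all genes. In the deposited values, the median level of the meningeal list ranged over 1.18 on the log2 scale, close to the 1.27 of the myelin genes. The r between the list median and the myelin profile was 0.04. On recovered reads the myelin genes ranged more widely, from -1.28 to 0.58 as median log2 deviation, against -0.49 to 0.68 for the meningeal list. The meningeal list was lowest in replicate 2 of WT and highest in replicate 3 of UNC0642 on both scales. Of 10 markers of Schwann cells, which make peripheral myelin, 6 were measured, with a sum of 131 to 168 in the deposited values. On that scale the precursor list was at -0.14 in replicate 1 of WT and 0.07 in replicate 1 of SHANK3 saline, as median log2 deviation. The myelin genes stood there at -0.49 and -0.83. On recovered reads both signs of the precursor list were reversed, at 0.01 and -0.11, where the myelin genes stood at -0.20 and -1.28.

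**Figure D5:**
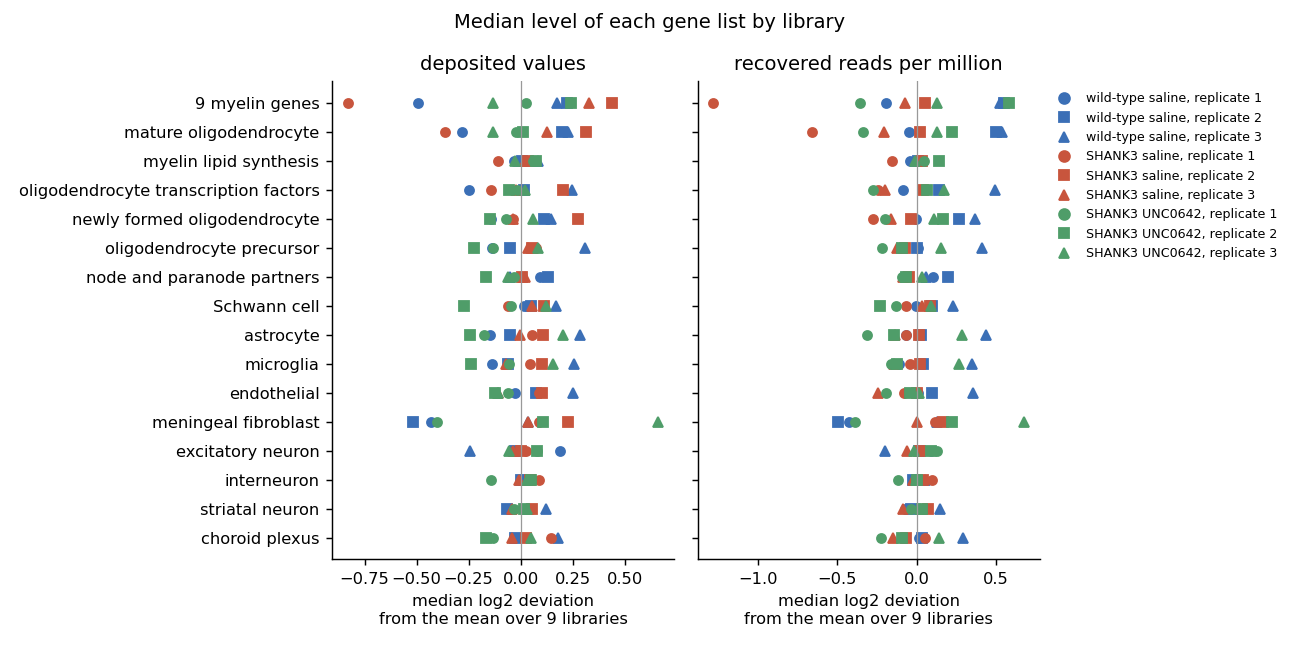
Median log2 deviation of each gene list from its mean over the 9 libraries, in deposited values (left) and recovered RPM (right); each symbol is a library. The myelin genes run from -0.83 to 0.44 in deposited values and the precursor genes from -0.22 to 0.31, with different libraries at their lower ends.

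In the comparison of SHANK3 saline with WT on recovered reads, the called lineage genes outside the 9 were all lower, while 0 genes of these lists were called in the deposited values. Of 40 mature genes 14 were called lower and 0 higher, with a list median of -0.68. Examples were Anln, which organizes septin filaments in myelin, at -1.15 (SE 0.26, adjusted p = 0.0209), Trf, the iron carrier transferrin, at -0.99 (SE 0.23, adjusted p = 0.0214), and Ermn, a cytoskeletal protein of late differentiation, at -1.12 (SE 0.30, adjusted p = 0.0319). The other 11 were Cntn2, Gpr37, Il33, Ndrg1, Plekhh1, Car2, Plxnb3, Tmem88b, Cryab, Tspan2 and Aspa. Of 10 transcription factors Myrf, at -1.04 (SE 0.27, adjusted p = 0.0312), and Tcf7l2, at -1.81 (SE 0.46, adjusted p = 0.0284), were called, and of 11 newly formed genes 4 were, namely Gpr17, Bcas1, Cnksr3 and 9630013A20Rik. Of 14 precursor genes Pcdh15 was called, at -0.48 (SE 0.14, adjusted p = 0.0412), and of 13 lipid genes 0 were. The background for these counts is again 6.71% of genes called lower. With the division as a term 0 of these genes were called, and the median of the mature list was -0.41. That model parts genotype from division only through the UNC0642 libraries, with replicate 3 alone on the WT side. The absence of calls in it therefore decides nothing about these genes.

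Markers of other cells moved in the same comparison. On recovered reads 3 of 12 endothelial genes (Flt1, Slc2a1, Esam) and 1 of 12 microglial genes (Itgam) were called lower, as were Kcna1, Ank3 and Cntnap1 among 11 genes of the node. Among 12 interneuron genes Sst and Cck were called higher and Gad1 lower. The sum of 12 astrocyte markers was 5691 to 7741 RPM in WT and 4925 to 5349 in SHANK3 saline, and that of 14 precursor markers 688 to 972 and 623 to 681, so that neither overlapped between these groups. Endothelial markers, at 326 to 403 in WT and 266 to 321 in SHANK3 saline, did not overlap either, while microglial markers, at 522 to 744 and 513 to 581, did. Such sums follow the most abundant genes of a list. Slc1a2 made up the largest part of the astrocyte sum, at 3438, 3442 and 4484 RPM in WT and 2554, 2900 and 2668 in SHANK3 saline. Of the 12 astrocyte genes 0 were called on recovered reads. Sums of newly formed oligodendrocyte genes (498 to 643 in WT, 434 to 476 in SHANK3 saline) and of node genes (3589 to 3894 and 3234 to 3319) were also lower without overlap. Those of excitatory neuron markers, 7859 to 8433 in WT and 8549 to 8974 in SHANK3 saline, and of interneuron markers, 1478 to 1526 and 1578 to 1699, were higher without overlap. The sum of the 9 myelin genes, 2116 to 3493 and 1094 to 2517, overlapped. Of the lists outside the 9 genes, 5 sums separated downward, 2 upward and 8 overlapped. Of single genes, a measure unlike sums, 20.5% separated downward and 20.2% upward. The part of these other lists in the difference of the myelin genes was not tested.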

How the data were processed

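Stranded libraries were made from ribosome-depleted total RNA of mouse prefrontal cortex, per the labels' protocols. The submitters' processing notes name cutadapt, TopHat2, HTSeq and mm9 without versions, and the normalization was not given in the sources available. The deposited values are a signal per gene that the authors named CPM, with 0 values equal to 0 and sums of 975390 to 1028773 per library.

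Among 255 divisions of the libraries into 2 sets, 1 made the set means of log2 values equal for all genes (largest gap 2.5e-09, next best 0.87). Whole reads were then solved per gene, allowing for a mean prior of 3.0 reads, with 100% of genes solved within 0.02 reads; in simulated data of 2000 genes 100% were returned exactly. The submitters' values were rebuilt from these reads to within 1.3e-08 on the log2 scale.

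The design foresaw the test on the deposited scale: limma 3.58.1 (R 4.3.3) with its trend option on log2(value + 0.5), all 9 libraries, a model of group alone, and p-values adjusted by Benjamini-Hochberg over 14444 genes. A gene was called below an adjusted p of 0.05. The pseudocount shrinks fold changes of low genes. Limma-voom on recovered reads used trimmed-mean factors (30% of log ratios trimmed), also with upper-quartile factors, with the division as a term and on one side of it. Other alternatives were median-of-ratios factors, pseudocounts of 1 and 0.1, a filter, only the 6 libraries compared, a replicate block and leaving out each library; leaving out both low libraries was added after their values were seen. Over all genes in the deposited values, replicate numbers did not pair the libraries. For the 9 genes on recovered reads, replicate 1 had the lowest share of reads in each group. The replicate block was run on the deposited values only, so pairing on recovered reads was not tested.

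The members and the 16 gene lists were chosen with earlier results of these data known; 188 of 204 listed genes outside the members were measured. All members are named; of other lists, the genes of highest mean value and those called, and the 10 genes of highest r with the mean of the members' standardized profiles among those of mean value of at least 1. A few more listed genes were picked once their values were known. Some genes that this rule names are not reported here. Exon lengths came from GENCODE M21 and upstream sequences from RefSeq, both on GRCm38 and not the build of the files. Python 3.11.15 was used with numpy 2.4.6, pandas 2.3.3 and matplotlib 3.10.9.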

Additional observations from a re-analysis of the deposited data

How the results depend on the processing

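The 27 values of the myelin genes (9 genes, 3 comparisons) kept their direction and stayed uncalled under median-of-ratios factors, pseudocounts of 1 and 0.1, a filter (values of 1 or more in 3 or more libraries), only the 6 libraries compared and a replicate block. The replicate block called 0 genes in each comparison. Over all genes in the deposited values, same-numbered libraries did not deviate together (r from -0.19 to 0.31). Genes called rose from 0 to 5 for SHANK3 saline minus WT with only the 6 libraries compared. On recovered reads 1794 genes were called for SHANK3 saline minus WT, as with upper-quartile factors, and 12 without replicates 1 of WT and SHANK3 saline, the 2 low libraries. For UNC0642 minus WT the counts were 11, 8 with upper-quartile factors, 5 with the division as a term, and 2 both without the low libraries and on the WT side of the division (3 WT libraries and 1 of UNC0642, assumed to vary like them). The median over the 9 genes moved to -0.71, -0.64 with the division as a term, -0.71 with upper-quartile factors and -0.50 without the low libraries for SHANK3 saline minus WT. For UNC0642 minus SHANK3 saline it moved to 0.52, 0.52, 0.53 and, within 5 libraries on one side, 0.53. The cause was not tested beyond the recovery of the reads, which undoes the adjustment by construction.

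Most values lay near 0 in the deposited data. On recovered reads 16 of the 27 changed sign, and in the deposited values without the low libraries 12 did. Not all of the changed values were small: for SHANK3 saline minus WT they ran from -0.49 to -1.11 in the plain fit of recovered reads. For SHANK3 saline minus WT, the log2 difference changed sign under the plain fit, the division as a term, upper-quartile factors and recovered reads without the 2 low libraries, in this order: Mbp -0.63, -0.64, -0.63 and -0.48, Mobp -0.76, -0.73, -0.75 and -0.59, Mal -0.74, -0.55, -0.74 and -0.56, Cldn11 -0.66, -0.61, -0.66 and -0.45, Cnp -0.49, -0.44, -0.49 and -0.35, Mog -0.52, -0.71, -0.52 and -0.39, Opalin -0.71, -0.60, -0.71 and -0.50 and Ugt8a -1.11, -0.71, -1.11 and -1.08. For SHANK3 saline minus WT, the log2 difference changed sign under the deposited values without the 2 low libraries: Mag 0.14. For UNC0642 minus SHANK3 saline, the log2 difference changed sign under the deposited values without the 2 low libraries: Mbp -0.38, Mal -0.37, Cldn11 -0.31, Mog -0.30, Mag -0.38 and Opalin -0.21. For UNC0642 minus SHANK3 saline, the log2 difference changed sign under the plain fit, the division as a term, upper-quartile factors, the libraries on one side of the division and recovered reads without the 2 low libraries, in this order: Mobp 0.50, 0.49, 0.51, 0.50 and 0.075, Cnp 0.36, 0.34, 0.37, 0.35 and 0.056 and Ugt8a 0.70, 0.57, 0.71, 0.58 and 0.37. For UNC0642 minus WT, the log2 difference changed sign under the plain fit, the division as a term, upper-quartile factors, the libraries on one side of the division, recovered reads without the 2 low libraries and the deposited values without the 2 low libraries, in this order: Mbp -0.20, -0.20, -0.18, -0.20, -0.42 and -0.20, Mal -0.16, -0.036, -0.15, -0.030, -0.41 and -0.15, Cldn11 -0.074, -0.045, -0.057, -0.038, -0.30 and -0.068, Cnp -0.14, -0.10, -0.12, -0.095, -0.29 and -0.11 and Mog -0.065, -0.19, -0.048, -0.18, -0.30 and -0.11. For UNC0642 minus WT, the log2 difference changed sign under recovered reads without the 2 low libraries: Opalin -0.16.

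Leaving out 1 library at a time called 0 to 4 genes for UNC0642 minus WT (4 without replicate 1 of UNC0642) and 0 in the other comparisons. The median of the 9 genes ran from -0.20 to 0.42, -0.37 to 0.26 and -0.15 to 0.13 in the order of the comparisons. The ranges were, for SHANK3 saline minus WT Mbp -0.20 to 0.40, Mobp -0.26 to 0.43, Mal -0.22 to 0.46, Cldn11 -0.24 to 0.46, Cnp -0.11 to 0.35, Mog -0.19 to 0.42, Mag -0.30 to 0.37, Opalin -0.25 to 0.45 and Ugt8a -0.28 to 0.36. The ranges were, for UNC0642 minus SHANK3 saline Mbp -0.38 to 0.22, Mobp -0.43 to 0.26, Mal -0.37 to 0.31, Cldn11 -0.31 to 0.39, Cnp -0.31 to 0.15, Mog -0.30 to 0.26, Mag -0.38 to 0.28, Opalin -0.21 to 0.49 and Ugt8a -0.41 to 0.14. The ranges were, for UNC0642 minus WT Mbp -0.20 to 0.13, Mobp -0.26 to 0.13, Mal -0.15 to 0.23, Cldn11 -0.068 to 0.27, Cnp -0.11 to 0.13, Mog -0.11 to 0.27, Mag -0.25 to 0.13, Opalin 0.067 to 0.40 and Ugt8a -0.35 to 0.12. With 3 libraries a group and SDs near 0.5 on the log2 scale, differences of the size seen on recovered reads did not pass for 8 of the 9 genes. Depth limits Opalin most, at 47 reads in its lowest library.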
